A study of Mus musculus with 36 samples.

Results

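Embryoid bodies lacking the long noncoding RNA LncCPR were compared with control embryoid bodies at day 5 of differentiation, the time when the control aggregates carried both primitive streak genes and the first genes of cardiac mesoderm. The comparison rests on 6 libraries, 3 per group, out of the 36 of the series. Of 37561 gene entries in the day 5 table, the 12447 (33.1%) with a mean of at least 1 FPKM over the 6 libraries were tested, all others being left out whatever their change. FPKM is the number of sequenced fragments of a transcript scaled by its length and by the total of the library. Control embryoid bodies came from AB2.2, a mouse embryonic stem cell line. Knockout embryoid bodies came from AB2.2 LncCPR-/- cells, made with Cas9 and a pair of guides on either side of the gene, each delivered on a construct that also carried GFP, followed by sorting of single cells and genotyping. How many such lines stand behind the 3 knockout libraries is not stated in the labels, nor whether the control cells went through the same sorting, so deletion and cloning cannot be told apart. Both groups were treated alike otherwise: the cytokine LIF, which holds stem cells in pluripotency, was withdrawn, cells were hung in drops of serum medium, and RNA was taken from whole aggregates. Nothing in the labels says that the 3 libraries of a group are separate cultures, so the p-values measure the spread between these libraries, which may be technical.

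Gastrulation is the step at which the epiblast, the pluripotent layer of the embryo, gives rise to mesoderm and endoderm. Cells at the primitive streak switch on the T-box genes T and Eomes under Nodal, Wnt and BMP signals, lose their epithelial contacts and move away. The first mesoderm to leave switches on Mesp1, a basic helix-loop-helix factor that marks the progenitors of the heart. Those cells then carry the receptors Kdr and Pdgfra, and later the heart factors Hand1, Hand2, Gata4, Tbx20 and Isl1. Embryoid bodies in serum pass through the same order of stages without the layout of the embryo.

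The sequences around an annotated transcript start of 4 genes that lay far lower in the knockout are shown because their levels carry the main contrast of the day. They are RefSeq windows in GRCm38.p6 of 300 bases, of which 250 lie before an annotated transcript start, read 5′ to 3′ on the strand of the gene. For Mesp1 and Hand2 that start is the start of the gene. The windows of 4930500J02Rik and Kdr begin past the gene start and do not show the bases before it. Capitals mark matches to 3 short motifs searched on both strands: TCACACCT, bound by T-box factors, AGATAA, bound by GATA factors, and CACCTG, an E-box form bound by Snail and many helix-loop-helix factors. The first motif followed by a G would contain the third.
4930500J02Rik (listed by RefSeq as Platr14), chr2:104559209-104559508, plus strand: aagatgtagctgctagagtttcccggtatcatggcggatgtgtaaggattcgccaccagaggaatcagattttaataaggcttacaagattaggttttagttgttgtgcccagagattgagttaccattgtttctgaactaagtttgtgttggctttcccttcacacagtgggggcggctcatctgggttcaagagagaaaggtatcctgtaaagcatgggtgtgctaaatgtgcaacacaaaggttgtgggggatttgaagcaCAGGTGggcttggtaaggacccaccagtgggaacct
Mesp1, chr7:79793541-79793840, minus strand: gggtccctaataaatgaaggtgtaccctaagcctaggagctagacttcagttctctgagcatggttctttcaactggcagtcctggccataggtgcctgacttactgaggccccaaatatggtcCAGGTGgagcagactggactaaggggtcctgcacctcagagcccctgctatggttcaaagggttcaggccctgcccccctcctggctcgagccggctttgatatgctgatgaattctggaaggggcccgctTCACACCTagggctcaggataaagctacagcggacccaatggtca
Kdr, chr5:75978406-75978705, minus strand: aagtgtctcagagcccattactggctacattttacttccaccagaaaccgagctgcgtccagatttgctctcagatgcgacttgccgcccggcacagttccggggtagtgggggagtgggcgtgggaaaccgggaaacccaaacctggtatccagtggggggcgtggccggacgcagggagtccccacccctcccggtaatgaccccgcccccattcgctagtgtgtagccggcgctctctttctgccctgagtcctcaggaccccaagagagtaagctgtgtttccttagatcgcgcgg
Hand2, chr8:57320733-57321032, plus strand: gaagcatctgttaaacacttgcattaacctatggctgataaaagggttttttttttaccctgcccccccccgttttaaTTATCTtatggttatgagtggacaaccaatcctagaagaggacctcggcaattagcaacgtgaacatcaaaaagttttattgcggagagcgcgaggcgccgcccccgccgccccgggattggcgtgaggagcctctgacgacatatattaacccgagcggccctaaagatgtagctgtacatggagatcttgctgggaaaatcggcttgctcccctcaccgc
In the Mesp1 window the T-box letters begin at base 256 of the 300 and the E-box letters, on the other strand, at base 125. The Hand2 window holds the GATA letters at base 79 and the 4930500J02Rik window the E-box letters at base 265, each on the strand opposite to the gene, while the Kdr window holds none of the 3. Over 32851 such windows the T-box letters occurred in 1.28%, the GATA letters in 11.2% and the E-box letters in 20.2%. Among the 19 cardiac mesoderm genes called lower below, 13 had a window, of which 1 held the T-box letters (Mesp1), 2 the GATA letters (Hand2 and Isl1) and 4 the E-box letters (Bmp4, Mesp1, Msx1 and Snai1). A match describes the letters and is no evidence of binding.

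The 6 libraries summed to between 331680 and 373039 FPKM, with 12154 to 12450 entries at 1 FPKM or more, and absolute depth is unknown. Across tested genes, replicates correlated at r from 0.982 to 0.987 and libraries of different groups at 0.965 to 0.974, genes not being independent replicates. Control replicate 1 stood apart. Its 10 most abundant genes held 23.1% of its total against 11.4% to 13.2% in the other 5, and the mitochondrial ribosomal RNA mt-Rnr1 was at 36873 FPKM against 16019 to 19882. Relative depth, taken from the ratio to that library found most often among genes under 1 FPKM and above 0 in 2 or 3 libraries, put the other 5 libraries at 0.551 to 0.651 of it. The main counts and a part of the other results are therefore given also without it, and after the 6 libraries were rescaled by their median ratio over genes. Of the markers of other cell types, 9 of 10 immune and 11 of 12 fibroblast genes were below the filter, the leukocyte gene Ptprc at no more than 0.0879 FPKM and the fibroblast collagen Col1a1 at no more than 0.434 FPKM. The exceptions were Cd68, called higher in the knockout, and Thy1, both given below with the sums of the lists.

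At day 5, 1293 of the 12447 genes (10.4%) passed an adjusted p of 0.05, 880 of them higher in the knockout (7.07% of genes tested) and 413 lower (3.32%). In 1291 of the 1293 the 3 control and 3 knockout libraries did not overlap, which is the smallest exact permutation p, 0.1, that 3 against 3 allows. A call with 3 libraries per group all but requires such separation, so this count adds no support to the calls. Each difference here and below is the knockout mean minus the control mean of log2(FPKM + 1), which understates the change of low genes, with the standard error (SE) and an adjusted p from limma. On that scale 128 of the called genes lay below -1 against 56 above 1, and 26 lay below -2 against 0 above 2. By the ratio of mean FPKM, 74 were more than 4-fold lower, 2 of them listed at 0 in all knockout libraries, and 8 more than 4-fold higher. The median difference of all genes was 0.13, and rescaling took it to 0.03. Rescaling changed the split of the calls from 68.1% higher to 48.5% higher: 734 genes were then higher (5.9%) and 778 lower (6.26%). Both scalings called 687 of the same genes higher and 411 lower. The fit was also repeated without each library in turn, giving 6 leave-one-out fits. Without control replicate 1, 452 genes were higher and 391 lower.

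**Figure D1:**
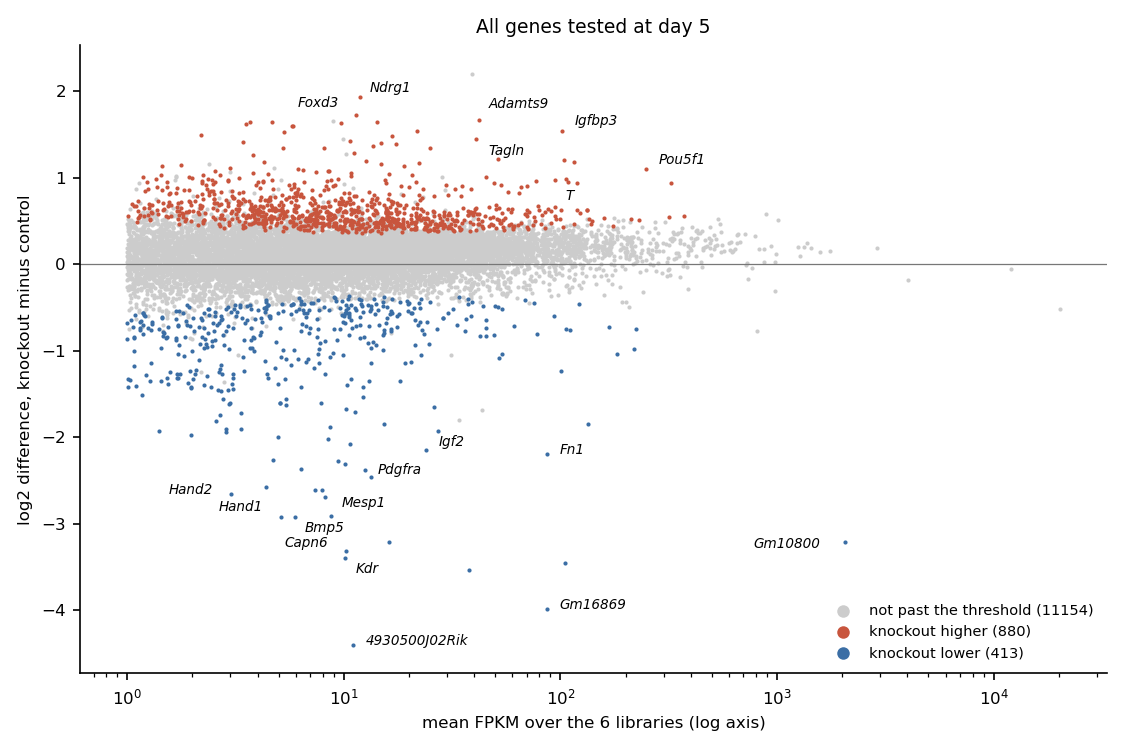
Log2 difference between knockout and control at day 5 against the mean FPKM over the 6 libraries (log axis), 1 point per gene tested. Red points (880) passed the threshold as higher and blue points (413) as lower. The 26 called genes past 2 log2 units on this FPKM + 1 scale all lie on the lower side.

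No entry of the table is named LncCPR, so the deletion could not be checked at its own level, and which entry covers it is not given in the sources used here. The entry with the greatest difference was 4930500J02Rik (ENSMUSG00000086454.1), a noncoding RNA of chromosome 2. It was listed at 18.7, 23.3 and 24.1 FPKM in control and 0.280, 0 and 0 FPKM in knockout (log2 difference -4.40, adjusted p = 8.74e-08). All 3 control libraries were far above all 3 knockout libraries, 2 of which were listed at 0. Cufflinks can list 0 where the estimate failed, and at day 5 Jmjd1c, Stard7 and 1110012J17Rik each had a single 0 while the other 5 libraries held at least 38.4 FPKM.

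Cardiac mesoderm had the lowest median difference of the lists. Of 29 genes on its list 21 were tested, and 19 of these were lower in the knockout and 0 higher, against 3.32% of all genes lower. Members with a knockout mean under 1 FPKM, such as Kdr, Hand1, Hand2 and Isl1, passed the filter only through their control level. Such genes could only come out lower, here and in the other lists, so the filter itself raises the count of lower members. In the same way, members of any list with a control mean under 1 FPKM could only come out higher. The median difference of the 21 was -1.44 (-1.51 after rescaling), next to 0.13 (0.03) over all genes. Without control replicate 1, 18 members passed the filter on low values and 17 of them were lower. The summed level of the list was 160.3 to 195 FPKM in control and 47.5 to 51.5 FPKM in knockout. In whole aggregates, fewer cells of a type and less RNA per cell cannot be told apart.

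Mesp1 (ENSMUSG00000030544.5) was at 13.7, 16.9 and 18.1 FPKM in control and 1.06, 1.91 and 1.00 FPKM in knockout. Every control library lay far above the highest knockout library. The mean was 12.3-fold lower in the knockout (log2 difference -2.90, SE 0.16, adjusted p = 1.95e-06). Kdr, the VEGF receptor carried by the earliest heart and blood progenitors, stood at 19.03, 17.2 and 21.8 FPKM in control and 0.875, 0.893 and 1.01 FPKM in knockout. The groups lay far apart, and the 3 knockout libraries were close to each other. The mean was 20.9-fold lower (log2 difference -3.39, SE 0.12, adjusted p = 9.88e-08). Pdgfra, a PDGF receptor of cardiac and paraxial mesoderm, was at 20.4, 22.5 and 22.4 FPKM in control and 3.53, 2.83 and 3.89 FPKM in knockout. The groups again did not overlap (log2 difference -2.37, SE 0.12, adjusted p = 1.46e-06).

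Hand1, a factor of the early heart tube and the extraembryonic mesoderm, was at 10.3, 9.05 and 10.0 FPKM in control and 0.664, 0.262 and 0.380 FPKM in knockout. Its relative Hand2, which acts in the right ventricle and the outflow tract, was at 5.32, 5.60 and 6.97 FPKM in control and 0.0335, 0.160 and 0.101 FPKM in knockout. Both genes were on in every control library, while no knockout library reached 1 FPKM in either. The differences were -2.92 (SE 0.14, adjusted p = 1.04e-06) and -2.66 (SE 0.14, adjusted p = 1.65e-06). Foxf1a, a forkhead factor of lateral plate mesoderm, was listed at 2.77, 2.82 and 2.80 FPKM in control and 0, 0 and 0 FPKM in knockout (adjusted p = 1.32e-05). No fold is given against a group listed at 0.

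The zinc finger factor Gata4, needed for the heart tube to form, was at 11.1, 12.0 and 13.9 FPKM in control and 3.58, 2.81 and 3.84 FPKM in knockout. Its knockout libraries were not near 0, unlike those of Hand2, but lay below every control library (log2 difference -1.60, SE 0.13, adjusted p = 3.17e-05). Its relative Gata6 was at 9.99, 13.1 and 15.5 FPKM in control and 7.40, 9.02 and 8.46 FPKM in knockout, the smallest difference among the called members (log2 difference -0.56, SE 0.15, adjusted p = 0.0384). That call was lost in 4 of the 6 leave-one-out fits. Tbx20, a T-box repressor of the heart, was at 4.57 ± 0.237 FPKM in control against 0.596 ± 0.156 FPKM in knockout (SD, n = 3), a difference of -1.81. Isl1, which marks the second heart field, was at 1.88 ± 0.108 FPKM in control against 0.149 ± 0.0372 FPKM in knockout, a difference of -1.32. Both genes were low in the control group as well.

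The remaining called members were ligands and transcription factors of the lateral and cranial mesoderm. The BMP ligands Bmp5 (8.21, 12.0 and 13.6 FPKM in control, 0.346, 0.658 and 0.786 FPKM in knockout) and Bmp4 (3.97, 3.97 and 4.41 and 1.80, 0.927 and 0.981 FPKM) differed by -2.93 and -1.21. The homeobox genes Msx2 and Msx1, which follow BMP signalling, differed by -1.44 and -1.07, and the forkhead genes Foxc2 and Foxc1 by -1.42 and -1.38. Tbx3 differed by -1.56, the mesenchymal repressor Snai1 by -1.42 and the chromatin subunit Smarcd3 by -0.65. In all of these every control library was above every knockout library. The call on Smarcd3 was lost in 1 of the 6 leave-one-out fits. The other two tested members did not pass: Bmp2 was at 6.53, 7.63 and 7.20 FPKM in control and 4.94, 6.36 and 6.00 FPKM in knockout (adjusted p = 0.193), and Rspo3, a Wnt enhancer, at 14.8, 21.9 and 21.9 FPKM in control and 16.4, 14.9 and 16.04 FPKM in knockout (adjusted p = 0.264). The 8 members that were not tested, Mesp2, Gata5, Tbx5, Nkx2-5, Mef2c, Tbx2, Wnt2 and Myocd, reached at most 0.813 FPKM in any of the 6 libraries, so the later heart factors were barely present in either group.

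**Figure D2:**
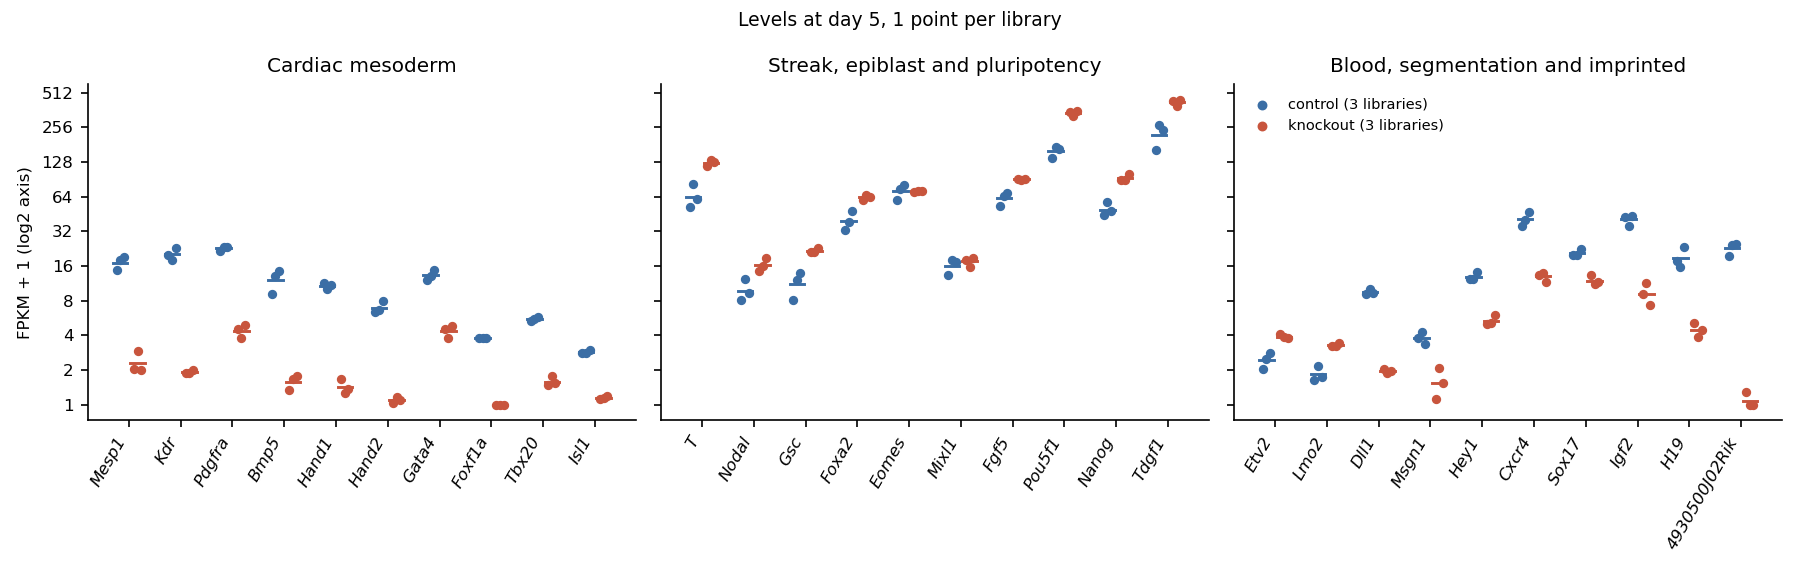
FPKM + 1 of 30 genes at day 5 on a log2 axis, 1 point per library (control blue, knockout red), with a bar at the mean on that scale. The 10 cardiac mesoderm genes lie lower in all 3 knockout libraries, T, Nodal, Gsc, Foxa2, Fgf5, Pou5f1, Nanog and Tdgf1 lie higher, and Eomes and Mixl1 overlap.

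Primitive streak genes were called in both directions. Of 20 on the list 16 were tested, with 7 higher and 4 lower against 10.4% of all genes called, and a median difference of 0.23 (0.13 after rescaling). Without control replicate 1, 5 were higher and 4 lower, and the median was 0.11, next to 0.06 over all genes. T, the T-box factor that defines the streak and its mesoderm, was at 50.6, 81.2 and 60.7 FPKM in control and 116, 133 and 127 FPKM in knockout. The highest control library lay below the lowest knockout library, and the control libraries were the more spread (log2 difference 0.98, SE 0.16, adjusted p = 0.0036). Without control replicate 1 the difference was 0.83. Eomes, the T-box factor that acts upstream of Mesp1, was at 58.4, 73.2 and 80.4 FPKM in control and 69.6, 70.2 and 70.9 FPKM in knockout. The knockout libraries lay inside the range of the controls, with a difference of 0.00 (SE 0.13, adjusted p = 0.992). Mixl1, a homeobox gene of the streak, was at 12.4, 16.9 and 16.3 FPKM in control and 17.2, 14.8 and 17.8 FPKM in knockout and overlapped as well (adjusted p = 0.574).

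Besides T and Nodal, the higher members were Gsc, Foxa2, Tdgf1, Fgf17 and Sp5. Gsc, the homeobox gene of the organizer, was at 7.09, 11.1 and 12.9 FPKM in control and 20.05, 20.3 and 21.9 FPKM in knockout (log2 difference 0.97, SE 0.17, adjusted p = 0.0058). Foxa2, the forkhead factor of the anterior streak and endoderm, was at 31.6, 37.7 and 46.8 FPKM in control and 59.1, 65.5 and 62.3 FPKM in knockout (log2 difference 0.69, SE 0.14, adjusted p = 0.0117). In both, all knockout libraries exceeded all control libraries. The Nodal co-receptor gene Tdgf1, expressed in epiblast and streak, was at 163, 267 and 243 FPKM in control and 428, 394 and 443 FPKM in knockout, with control replicate 1 the lowest of the 6 (log2 difference 0.94, SE 0.18, adjusted p = 0.00937). The growth factor gene Fgf17 was low, at 0.811, 0.453 and 0.448 FPKM in control and 1.38, 1.93 and 2.22 FPKM in knockout (log2 difference 0.85, SE 0.17, adjusted p = 0.00972). Fgf17 passed the filter only through its knockout level, so it could only come out higher. The Wnt target Sp5 was at 6.34, 6.62 and 7.11 FPKM in control and 9.60, 9.75 and 12.3 FPKM in knockout (log2 difference 0.58, SE 0.12, adjusted p = 0.0136), and without control replicate 1 its adjusted p was 0.0523.

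The lower members were 4. Besides Mesp1 and Snai1, they were Msgn1, a helix-loop-helix factor of presomitic mesoderm, and Lhx1, a homeobox gene of the anterior mesendoderm. Msgn1 was at 2.83, 3.28 and 2.39 FPKM in control and 0.132, 1.07 and 0.530 FPKM in knockout (log2 difference -1.32, SE 0.21, adjusted p = 0.00279). Lhx1 was at 31.7, 39.0 and 42.3 FPKM in control and 25.6, 27.4 and 24.7 FPKM in knockout (log2 difference -0.51, SE 0.13, adjusted p = 0.0262), a call lost in 4 of the 6 leave-one-out fits. Wnt3, the Wnt ligand that starts the streak, was at 8.31, 9.91 and 8.98 FPKM in control and 8.27, 6.40 and 8.63 FPKM in knockout (adjusted p = 0.33). Fgf8, needed for cells to leave it, was at 31.0, 42.6 and 35.9 FPKM in control and 44.9, 42.6 and 51.4 FPKM in knockout (adjusted p = 0.134). Evx1, of the posterior streak, was at 3.47, 4.36 and 4.82 FPKM in control and 3.59, 1.92 and 2.86 FPKM in knockout (adjusted p = 0.111). In these last 3 the groups overlapped. Tbx6, Cdx1, Cdx2 and Wnt3a were below the filter and reached at most 1.48 FPKM. Of these Tbx6, which commits cells to paraxial mesoderm, was at 1.16, 1.48 and 1.32 FPKM in control and 0.494, 0.248 and 0.348 FPKM in knockout, without a test.

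Pluripotency genes were in part higher. Of 16 core factors, all tested, 6 were higher and 0 lower against 7.07% of all genes higher, with a median difference of 0.26 (0.18 after rescaling). Pou5f1, the homeobox factor that holds the pluripotent state, was at 139, 171 and 164 FPKM in control and 348, 319 and 355 FPKM in knockout. All knockout libraries were well above all controls, and the mean was 2.16-fold higher (log2 difference 1.11, SE 0.14, adjusted p = 0.000505). Nanog, its partner, was at 43.0, 56.8 and 46.6 FPKM in control and 87.4, 88.5 and 100.4 FPKM in knockout, with no overlap (log2 difference 0.91, SE 0.13, adjusted p = 0.00157). The developmental pluripotency genes Dppa4, Dppa5a and Dppa2 differed by 0.69, 0.64 and 0.55, and Tdgf1 is the sixth member. The calls on Dppa2 and Dppa5a were lost in 5 and 1 of the 6 leave-one-out fits, and after rescaling the adjusted p of Dppa2 was 0.0573.

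Other core factors did not pass. Sox2, which pairs with Pou5f1 on DNA, was at 28.1, 32.7 and 37.4 FPKM in control and 48.3, 39.5 and 40.8 FPKM in knockout (adjusted p = 0.0942). All knockout libraries were above all controls here, yet the gap was small next to the spread. Zfp42, also called Rex1, was at 18.9, 23.0 and 22.7 FPKM in control and 27.0, 21.98 and 21.5 FPKM in knockout (adjusted p = 0.57), and Esrrb at 7.57, 7.69 and 7.23 FPKM in control and 6.47, 6.44 and 8.03 FPKM in knockout (adjusted p = 0.629). Both overlapped between the groups. Of 11 tested naive state factors 0 were higher and 1 was lower, Tbx3, which the cardiac mesoderm list also holds.

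Genes of the formative and primed epiblast, the state just before gastrulation, had 5 of 14 higher and 1 lower. That compares with 7.07% higher and 3.32% lower over all genes, and the median of the 14 was 0.40 (0.29 after rescaling). Without control replicate 1 the counts were again 5 and 1, and the median was 0.28. Foxd3, a forkhead factor of the epiblast and the neural crest, was at 3.86, 4.86 and 5.60 FPKM in control and 18.9, 17.2 and 17.7 FPKM in knockout. The knockout level was 3.76-fold the control level (log2 difference 1.72, SE 0.13, adjusted p = 1.77e-05). Fgf5, the classic gene of the primed epiblast, was at 52.4, 63.4 and 68.4 FPKM in control and 89.5, 87.8 and 91.0 FPKM in knockout (log2 difference 0.54, SE 0.12, adjusted p = 0.0194), a call lost in 2 of the 6 leave-one-out fits. The kinase gene Pim2 differed by 0.90, the POU factor Pou3f1 by 0.68 and the zinc finger factor Zic2 by 0.64. The lower member was Cdh2, the cadherin of mesenchymal and neural cells (log2 difference -0.63, SE 0.13, adjusted p = 0.0118). Otx2 was at 66.9, 77.6 and 84.7 FPKM in control and 94.5, 98.3 and 98.8 FPKM in knockout and did not pass (adjusted p = 0.0949).

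Genes of paraxial mesoderm, which forms the somites, were in part lower as well. Of 23 genes 15 were tested, with 9 lower and 1 higher against 3.32% and 7.07% of all genes, and a median of -0.67 (-0.76 after rescaling). The 9 include Msgn1 and, shared with the cardiac mesoderm list, Foxc1 and Foxc2. Tcf15, Hes1, Nkd1, Rspo3 and Efna1 did not pass, and the 8 members not tested reached at most 1.48 FPKM. The summed level of the list overlapped between the groups, at 154 to 184 FPKM in control and 158 to 161 FPKM in knockout, with Hes1 its largest part. Dll1, the Notch ligand that segments the presomitic mesoderm, was at 8.06, 9.03 and 8.27 FPKM in control and 1.05, 0.885 and 0.959 FPKM in knockout. The controls lay far above all knockout libraries (log2 difference -2.27, SE 0.12, adjusted p = 1.46e-06). Hey1, a Notch target, was at 11.3, 11.4 and 13.2 FPKM in control and 4.004, 4.07 and 5.07 FPKM in knockout (log2 difference -1.27, SE 0.12, adjusted p = 0.000107), and the Notch ligand Dll3 at 7.98, 12.0 and 11.7 FPKM in control and 2.86, 4.09 and 5.27 FPKM in knockout (log2 difference -1.20, SE 0.19, adjusted p = 0.00295). The Notch modifier Lfng differed by -0.71, Cited1 by -0.67 and the protocadherin Pcdh8 by -0.61. The calls on Cited1 and Pcdh8 were lost in 2 and 3 of the 6 leave-one-out fits. The member that was higher was the ephrin receptor Epha1, at 10.9, 12.2 and 11.4 FPKM in control and 26.7, 25.4 and 26.9 FPKM in knockout (log2 difference 1.13, SE 0.10, adjusted p = 6.44e-05).

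Against 3.32% and 7.07% of all genes, 5 of 13 tested Notch pathway genes were lower and 1 higher. They were Dll1, Hey1, Dll3, Lfng and, with a smaller difference, the ligand Jag1 (log2 difference -0.51, SE 0.14, adjusted p = 0.0412), while Jag2 lay higher (log2 difference 0.44, SE 0.13, adjusted p = 0.0496). The call on Jag1 was lost in 4 of the 6 leave-one-out fits and that on Jag2 in all 6. After rescaling the adjusted p of Jag2 was 0.0708. The receptors Notch1, Notch2 and Notch3 and the nuclear partner Rbpj had differences between -0.32 and 0.11 and did not pass.

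Most blood and endothelial genes were below the filter. Of 26 on the list 5 were tested, and the 21 others reached at most 1.27 FPKM, with Hba-a1 listed at 0 in all 6 libraries. The list sum, 29.0 to 32.5 FPKM in control and 14.1 to 15.8 FPKM in knockout, is mostly Kdr in control. Etv2, the ETS factor that starts the blood and endothelial fate, was at 1.04, 1.47 and 1.82 FPKM in control and 3.11, 2.84 and 2.77 FPKM in knockout. Its level was higher in every knockout library, opposite in direction to Kdr (log2 difference 0.69, SE 0.15, adjusted p = 0.0155). Without control replicate 1 its adjusted p was 0.0543. Lmo2, a cofactor of blood transcription, was at 0.650, 1.18 and 0.758 FPKM in control and 2.25, 2.21 and 2.41 FPKM in knockout, also with no overlap (log2 difference 0.83, SE 0.15, adjusted p = 0.00618). Its control mean was under the filter, so it was tested only through its knockout level and could only come out higher. Pecam1, an endothelial adhesion gene, was at 3.33, 3.76 and 3.30 FPKM in control and 4.57, 2.61 and 2.78 FPKM in knockout and did not pass (adjusted p = 0.809). The co-receptor gene Eng did not pass either (log2 difference 0.24). Tal1, the helix-loop-helix factor of the blood lineage, was at most 0.0538 FPKM in any library.

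Of 15 definitive endoderm genes tested, 5 were higher and 6 lower, against 7.07% and 3.32% of all genes. The median of the 15 was -0.33 (-0.44 after rescaling). Without control replicate 1 the counts were 2 and 7, and over all leave-one-out fits they ran from 2 to 4 and from 3 to 7. The chemokine receptor Cxcr4, carried by mesoderm and endoderm that leave the streak, was at 34.6, 39.4 and 46.3 FPKM in control and 12.4, 13.0 and 10.7 FPKM in knockout. All knockout libraries were below all controls (log2 difference -1.65, SE 0.13, adjusted p = 2.40e-05). Sox17, the HMG-box factor of endoderm, was at 18.8, 18.9 and 21.5 FPKM in control and 12.2, 10.2 and 10.6 FPKM in knockout (log2 difference -0.79, SE 0.11, adjusted p = 0.00168). Both genes are on chromosome 1, whose genes as a whole lay lower, as described below. Foxa1 differed by -0.66, a call lost in 4 of the 6 leave-one-out fits, and Gata6 and Lhx1 are described above. Besides Foxa2 and Gsc, the higher members were Cer1 at 0.52, the adhesion gene Epcam at 0.54 and the keratin gene Krt19 at 0.63. These 3 calls were lost in 5, 5 and 3 of them.

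Visceral endoderm genes had 5 of 14 higher and 3 lower, with 3 higher without control replicate 1, control replicate 2 or knockout replicate 3. Over all genes 7.07% were higher and 3.32% lower, to be set beside the counts of each list in this paragraph. The endocytic receptor gene Lrp2 differed by 0.66 and the transport protein gene Ttr by 0.72, where 1 control and 1 knockout library overlapped. The call on Ttr was lost in 4 of the 6 leave-one-out fits and after rescaling (adjusted p = 0.0876). The serum protein genes Afp, Apob and Apoa1 had differences of 0.15, 0.15 and 0.34 and did not pass. In the neural list 3 of 8 were lower and 1 higher: the adhesion gene Ncam1 was at 7.11, 7.46 and 8.24 FPKM in control and 2.58, 2.33 and 2.00 FPKM in knockout (log2 difference -1.38, SE 0.12, adjusted p = 5.34e-05), and the intermediate filament gene Nes, the higher one, at 12.9, 14.3 and 13.9 FPKM in control and 40.6, 32.4 and 36.3 FPKM in knockout (log2 difference 1.34, SE 0.12, adjusted p = 4.08e-05). The groups did not overlap in either gene. Irx3 differed by -1.10. Of 4 trophoblast genes, Hand1 and Peg10 were lower and Krt7 was higher (log2 difference 0.84, SE 0.20, adjusted p = 0.0218), and of 4 surface ectoderm and neural crest genes Foxd3 and Grhl2 were higher. The calls on Krt7 and Grhl2 were lost in 3 and 4 of the 6 leave-one-out fits, and that on Grhl2 also after rescaling (adjusted p = 0.0811). Of 8 germline genes, Prdm1, the repressor that starts germ cell fate, was lower (log2 difference -0.85, SE 0.16, adjusted p = 0.00703), and Ifitm3 and Sycp3 were higher by 0.68 and 0.56. These last 2 calls were lost in 4 and 4 of the 6 leave-one-out fits, and that on Sycp3 also after rescaling (adjusted p = 0.0975).

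**Figure D3:**
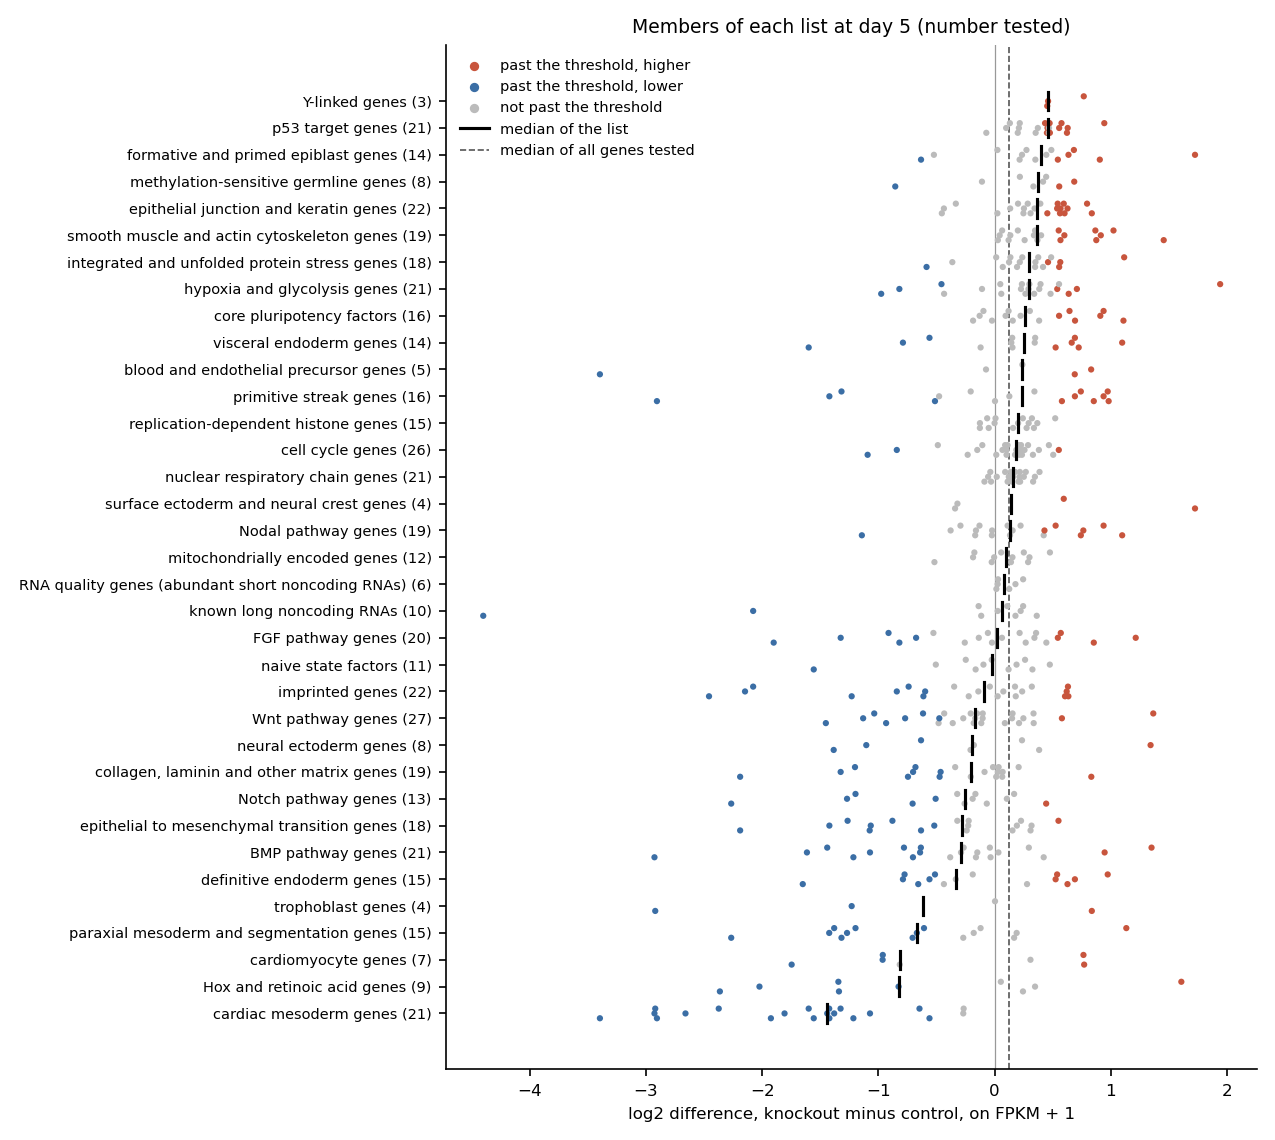
Log2 difference of every tested member of each gene list with 3 or more tested members, 1 point per gene, with the list median as a bar and the median of all tested genes (0.13) as a dashed line. Cardiac mesoderm lies lowest, with 19 of 21 members lower, and no member of the p53 or cytoskeleton lists was called lower.

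The Nodal pathway patterns the epiblast and the streak. Of 19 genes tested 6 were higher and 1 lower, against 7.07% and 3.32% of all genes, and after rescaling 6 were higher and 3 lower. The median of the 19, 0.13 (0.03 after rescaling), was close to that of all genes. Without control replicate 1, 4 were higher and 1 lower. Of the ligands and co-receptors, Nodal was at 7.14, 11.2 and 8.37 FPKM in control and 13.6, 15.0 and 17.7 FPKM in knockout. Each knockout library was above each control (log2 difference 0.74, SE 0.16, adjusted p = 0.0135), and without control replicate 1 the adjusted p was 0.0617. Cfc1, which like Tdgf1 encodes a co-receptor of Nodal, went the other way, at 22.3, 27.6 and 30.4 FPKM in control and 13.5, 10.1 and 11.04 FPKM in knockout (log2 difference -1.14, SE 0.14, adjusted p = 0.000595). Of the inhibitors, Lefty1 was at 3.90, 4.99 and 2.55 FPKM in control and 9.53, 7.47 and 10.4 FPKM in knockout (log2 difference 1.10, SE 0.19, adjusted p = 0.00429). Lefty1 and Cfc1 are both on chromosome 1. Cer1, which binds Nodal, BMP and Wnt proteins, was at 67.8, 80.6 and 96.7 FPKM in control and 122, 116 and 113 FPKM in knockout, while Lefty2 was at 17.5, 25.0 and 23.8 FPKM in control and 18.4, 15.6 and 19.05 FPKM in knockout and did not pass (adjusted p = 0.218). Of the targets, the Smad regulator Skil differed by 0.43, a call lost in 4 of the 6 leave-one-out fits, as was that on Cer1 in 5. The receptors Acvr1b, Acvr2a and Acvr2b had differences from -0.17 to -0.13, none past the threshold.

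Of 21 BMP pathway genes tested, 9 were lower and 2 higher, against 3.32% and 7.07% of all genes, with a median of -0.29 (-0.38 after rescaling). Besides the ligands Bmp5 and Bmp4, the modulator Bmper was at 4.03, 5.57 and 5.33 FPKM in control and 0.875, 0.967 and 0.977 FPKM in knockout (log2 difference -1.61, SE 0.14, adjusted p = 4.56e-05). The signal transducer Smad1 was at 24.4, 27.0 and 31.1 FPKM in control and 18.04, 15.1 and 16.2 FPKM in knockout (log2 difference -0.70, SE 0.12, adjusted p = 0.00492) and the receptor Bmpr2, on chromosome 1, at 12.2, 13.3 and 14.7 FPKM in control and 7.29, 8.86 and 8.54 FPKM in knockout (log2 difference -0.64, SE 0.12, adjusted p = 0.00692). In each of the 3 the groups were apart. The inhibitory genes Smad6 and Bambi, themselves induced by BMP, differed by -0.78 and -0.63, the call on Bambi being lost in 3 of the 6 leave-one-out fits. The 2 higher genes encode secreted antagonists. Chrd, which binds BMPs and is made by the organizer, was at 2.44, 2.48 and 2.64 FPKM in control and 7.56, 8.65 and 7.74 FPKM in knockout (log2 difference 1.35, SE 0.11, adjusted p = 3.75e-05). Fst, which binds activins and some BMPs, was at 30.7, 44.7 and 26.6 FPKM in control and 59.0, 63.5 and 72.9 FPKM in knockout (log2 difference 0.95, SE 0.17, adjusted p = 0.00659). The general BMP targets Id1, Id2 and Id3 differed by -0.38, -0.29 and -0.03 and did not pass.

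In the Wnt pathway 7 of 27 tested genes were lower and 2 higher, against 3.32% and 7.07% of all genes. The median of the 27 was -0.17 (-0.25 after rescaling). Of the ligands tested, Wnt5a and Wnt8a passed, in opposite directions, while Wnt3, Wnt5b and Wnt11 did not pass. Wnt5a, a ligand of the noncanonical branch, was at 3.99, 4.59 and 4.36 FPKM in control and 1.15, 0.874 and 0.817 FPKM in knockout (log2 difference -1.45, SE 0.13, adjusted p = 6.73e-05), while Wnt8a, a canonical ligand of the streak, was at 7.33, 9.42 and 5.11 FPKM in control and 19.9, 18.3 and 21.4 FPKM in knockout (log2 difference 1.36, SE 0.17, adjusted p = 0.000618). Neither gene overlapped between the groups. The secreted inhibitors Sfrp1, Frzb and Dkk1 differed by -1.13, -0.93 and -0.48, the last call being lost in 5 of the 6 leave-one-out fits. The receptor Fzd7, on chromosome 1, was at 69.2, 72.4 and 76.8 FPKM in control and 36.4, 35.3 and 33.2 FPKM in knockout (log2 difference -1.04, SE 0.11, adjusted p = 0.000162). The nuclear factor Lef1 differed by -0.77 and the inhibitor Apcdd1 by -0.62, a call lost in 4 of the 6 leave-one-out fits. Axin2, a general Wnt target, was at 13.1, 15.9 and 15.1 FPKM in control and 20.6, 18.6 and 17.2 FPKM in knockout and did not pass (adjusted p = 0.0967).

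FGF genes were split, with 4 of 20 higher and 5 lower, against 7.07% and 3.32% of all genes. The median of the 20 was 0.02 (-0.08 after rescaling), and its sign thus depends on the scaling. The ligands Fgf3 and Fgf10 were lower, Fgf3 at 5.10, 4.64 and 5.49 FPKM in control and 0.464, 0.734 and 0.690 FPKM in knockout (log2 difference -1.90, SE 0.14, adjusted p = 1.32e-05) and Fgf10 at 7.01, 8.44 and 8.93 FPKM in control and 3.00, 2.51 and 2.40 FPKM in knockout (log2 difference -1.32, SE 0.13, adjusted p = 0.000111). Control libraries exceeded knockout libraries throughout. The ligand Fgf15 differed by -0.82, the receptor Fgfr2 by -0.91 and the membrane protein gene Flrt3 by -0.68. On the higher side, besides Fgf5 and Fgf17, stood 2 feedback inhibitors induced by FGF signalling. Dusp6, a phosphatase of ERK, was at 24.3, 34.96 and 33.1 FPKM in control and 71.3, 75.8 and 68.6 FPKM in knockout (log2 difference 1.21, SE 0.14, adjusted p = 0.000343). Spry4 was at 4.75, 5.18 and 6.52 FPKM in control and 8.73, 7.91 and 9.05 FPKM in knockout (log2 difference 0.57, SE 0.13, adjusted p = 0.0188), a call lost in 3 of the 6 leave-one-out fits. Without knockout replicate 3 the higher genes of the list were 2. The ETS factors Etv4 and Etv5, further targets, differed by 0.44 and 0.21 and did not pass.

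Cells that leave the streak exchange epithelial for mesenchymal genes. Of 20 genes on that list 18 were tested, and 8 were lower and 1 higher, against 3.32% and 7.07% of all genes. The median of the 18 was -0.28 (-0.38 after rescaling). Fn1, the matrix protein fibronectin on which mesoderm migrates, was at 156, 131 and 143 FPKM in control and 31.8, 33.7 and 26.7 FPKM in knockout. Its mean was 4.67-fold lower, with no overlap between the groups (log2 difference -2.19, SE 0.13, adjusted p = 2.35e-06). The repressors Zeb1 and Zeb2 differed by -1.26 and -0.88, the cadherin Cdh11 by -1.07, and the ligands Tgfb2 and Tgfb1 by -1.07 and -0.52. Fn1 and Tgfb2 are on chromosome 1. The higher gene was Spp1, at 0.55. The calls on Tgfb1 and Spp1 were lost in 4 and 4 of the 6 leave-one-out fits. Vim, the intermediate filament of mesenchyme, was at 55.9, 63.1 and 69.4 FPKM in control and 77.1, 71.5 and 66.5 FPKM in knockout and did not pass (adjusted p = 0.331).

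Of 22 epithelial genes, 10 were higher and 0 lower, against 7.07% and 3.32% of all genes. The median of the 22 was 0.37 (0.27 after rescaling). St14, a membrane protease of epithelia, was at 18.5, 17.8 and 20.1 FPKM in control and 35.5, 30.3 and 34.3 FPKM in knockout (log2 difference 0.79, SE 0.11, adjusted p = 0.00127). The tight junction gene Ocln was at 7.94, 8.71 and 9.22 FPKM in control and 13.6, 14.2 and 12.9 FPKM in knockout (log2 difference 0.60, SE 0.11, adjusted p = 0.00618), and Cldn4, Marveld3 and the junctional gene Pkp2 differed by 0.54, 0.57 and 0.56. No control library reached the knockout levels of St14 or Ocln. These calls depended on the scaling and on control replicate 1: 8 were higher and 3 lower after rescaling, and 4 higher and 2 lower without that library. Without knockout replicate 1 the higher genes were 4 as well, and without control replicate 2 or 3 they were 6. The calls on Marveld3 and Cldn4 were lost in 5 and 2 of the 6 leave-one-out fits, and that on Marveld3 also after rescaling (adjusted p = 0.0594). Cdh1, the epithelial cadherin, was at 82.7, 77.8 and 93.3 FPKM in control and 112, 108 and 95.4 FPKM in knockout (adjusted p = 0.136). The keratin genes Krt8 and Krt18 had differences of -0.33 and -0.44 in the opposite direction and did not pass.

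Among 19 matrix genes 8 were lower and 1 higher, against 3.32% and 7.07% of all genes. Besides Fn1, the microfibril gene Fbn2 was at 3.32, 3.12 and 3.47 FPKM in control and 0.695, 0.729 and 0.730 FPKM in knockout (log2 difference -1.32, SE 0.13, adjusted p = 0.000106) and the proteoglycan gene Vcan at 6.23, 7.51 and 7.69 FPKM in control and 2.74, 2.66 and 2.21 FPKM in knockout (log2 difference -1.20, SE 0.13, adjusted p = 0.000192). Both were lower in every knockout library. The basement membrane collagens Col4a1 and Col4a2 differed by -0.75 and -0.70, and Lama1, Nid1 and the hyaluronan synthase Has2 by -0.68, -0.47 and -0.46. The last 3 calls were lost in 1, 6 and 3 of the 6 leave-one-out fits. Thbs1 was the higher one, at 0.83. The fibrillar collagens Col1a1, Col1a2 and Col3a1 were below the filter.

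Of 19 tested cytoskeletal genes of the smooth muscle type, 8 were higher and 0 lower under both scalings. As deposited, 7.07% of all genes were higher and 3.32% lower. The median of the 19 was 0.37 (0.26 after rescaling). Tagln, an actin-binding protein, was at 19.8, 24.8 and 19.5 FPKM in control and 62.3, 48.4 and 71.0 FPKM in knockout. All knockout libraries were well above all controls (log2 difference 1.45, SE 0.15, adjusted p = 0.000178). The secreted growth factors Ctgf and Cyr61, which respond to cell tension, were at 8.40, 5.74 and 6.41 against 14.04, 14.3 and 16.1 FPKM and 13.6, 18.3 and 16.5 against 32.2, 31.9 and 26.7 FPKM, control first (1.02 and 0.87). Cnn1 differed by 0.91, the smooth muscle actin Acta2 by 0.87, the light chain Myl9 by 0.60 and the tropomyosins Tpm1 and Tpm2 by 0.55 and 0.57. The calls on Myl9, Tpm1 and Tpm2 were lost in 1, 4 and 1 of the 6 leave-one-out fits. The levels of Des, Flna and Srf did not pass, with differences from 0.06 to 0.13.

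Few sarcomere genes were on at day 5: 7 of 23 cardiomyocyte genes were tested, and the other 16, among them Myh6, Myh7 and Nkx2-5, reached at most 1.58 FPKM. The atrial light chain Myl7, made early in the heart tube, was at 3.47, 5.27 and 5.34 FPKM in control and 0.666, 1.03 and 0.395 FPKM in knockout (log2 difference -1.75, SE 0.18, adjusted p = 0.000185). The light chains Myl3 and Myl4 differed by -0.96 and -0.96. The cardiac actin Actc1, which early mesoderm and smooth muscle also make, was at 5.36, 5.81 and 4.01 FPKM in control and 8.46, 9.61 and 9.72 FPKM in knockout, higher in every knockout library (log2 difference 0.77, SE 0.14, adjusted p = 0.00563), and Tnni3 differed by 0.76, a call lost in 3 of the 6 leave-one-out fits and after rescaling (adjusted p = 0.0575). The 3 lower and 2 higher of the 7 tested, against 3.32% and 7.07% of all genes, thus did not share a direction.

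Of 21 tested target genes of p53, the factor that responds to DNA damage and stress, 11 were higher and 0 lower against 7.07% of all genes higher, with a median of 0.45 (0.35 after rescaling). Rescaled, 7 were higher. In the leave-one-out fits 4 to 9 were higher, with 4 without knockout replicate 3, 6 without knockout replicate 1 and 8 without control replicate 1. Plk2, a kinase gene, was at 10.4, 11.5 and 9.43 FPKM in control and 23.6, 19.06 and 20.5 FPKM in knockout (log2 difference 0.94, SE 0.12, adjusted p = 0.000694), and the cyclin gene Ccng1 at 61.7, 66.7 and 59.4 FPKM in control and 96.1, 97.3 and 98.3 FPKM in knockout (log2 difference 0.63, SE 0.11, adjusted p = 0.00488). Both were higher in each knockout library, with the 3 knockout values of Ccng1 close together. Eda2r differed by 0.62, Trp53inp1 by 0.58, Sesn2 by 0.56, Aen by 0.48 and Mdm2, which degrades p53, by 0.46. The calls on Sesn2, Aen and Mdm2 were lost in 1, 2 and 5 of the 6 leave-one-out fits, and that on Mdm2 also after rescaling (adjusted p = 0.0512). The cell cycle inhibitor Cdkn1a, the best known target, was at 3.47, 2.97 and 1.86 FPKM in control and 3.43, 4.50 and 4.50 FPKM in knockout and did not pass (adjusted p = 0.115), nor did Trp53 itself.

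Of 18 stress genes 4 were higher and 1 lower, against 7.07% and 3.32% of all genes. Without knockout replicate 1, 2 were higher, and without knockout replicate 3, 1 was. Atf3 was at 1.70, 1.59 and 1.25 FPKM in control and 4.38, 4.87 and 4.07 FPKM in knockout (log2 difference 1.11, SE 0.13, adjusted p = 0.000422), Atf4, which drives amino acid synthesis under stress, at 65.4, 79.9 and 83.4 FPKM in control and 112, 111 and 116 FPKM in knockout (log2 difference 0.56, SE 0.13, adjusted p = 0.0164), and Jun, the lower one, at 12.0, 12.8 and 13.8 FPKM in control and 8.64, 7.64 and 8.44 FPKM in knockout (log2 difference -0.59, SE 0.11, adjusted p = 0.00742). Groups were apart in all 3, and the call on Atf4 was lost in 2 of the 6 leave-one-out fits. Hspa5 and Hsp90b1, chaperones of the endoplasmic reticulum, had differences of 0.42 and 0.19 and did not pass. Sdf2l1, another of the 4 higher genes, differed by 0.46 (adjusted p = 0.0490). That call was lost in 4 of the 6 leave-one-out fits and after rescaling (adjusted p = 0.0678). Of 21 hypoxia and glycolysis genes 4 were higher, or 2 without control replicate 2, and 3 lower, against 7.07% and 3.32% of all genes. Ndrg1, which rises in low oxygen and in differentiating cells, was at 3.84, 4.22 and 4.90 FPKM in control and 18.8, 20.4 and 18.8 FPKM in knockout, the greatest difference among the genes called higher (log2 difference 1.94, SE 0.12, adjusted p = 2.94e-06). Its knockout libraries were close together and well above any control. The glucose transporter Slc2a3 was at 273, 279.6 and 316 FPKM in control and 145, 142 and 152 FPKM in knockout (log2 difference -0.98, SE 0.13, adjusted p = 0.000721) and the growth factor Vegfa at 16.8, 21.3 and 21.0 FPKM in control and 12.1, 10.6 and 9.39 FPKM in knockout (log2 difference -0.82, SE 0.13, adjusted p = 0.00299), both lower. Eno1, Bnip3 and Pdk1 differed by 0.71, 0.64 and 0.54. The calls on Bnip3 and Pdk1 were each lost in 3 of the 6 leave-one-out fits, and that on Bnip3 also after rescaling (adjusted p = 0.0602).

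Imprinted genes, read from 1 parental copy, had 8 of 22 lower and 4 higher, against 3.32% and 7.07% of all genes. The median of the 22 was -0.09 (-0.20 after rescaling). Phlda2, a growth inhibitor expressed from the maternal copy, was at 24.4, 21.1 and 24.5 FPKM in control and 2.97, 3.21 and 4.17 FPKM in knockout (log2 difference -2.46, SE 0.13, adjusted p = 1.46e-06). The growth factor Igf2, from the paternal copy, was at 41.9, 34.96 and 42.4 FPKM in control and 8.18, 10.4 and 6.39 FPKM in knockout (log2 difference -2.15, SE 0.16, adjusted p = 1.36e-05), and H19, the noncoding RNA next to it from the maternal copy, at 16.7, 14.6 and 22.6 FPKM in control and 4.08, 2.87 and 3.42 FPKM in knockout (log2 difference -2.08, SE 0.16, adjusted p = 2.34e-05). In these 3 genes of chromosome 7 the controls were all above the knockout libraries. Cdkn1c, also on that chromosome, differed by -0.84. Peg10 was at 136, 133 and 157 FPKM in control and 60.6, 61.7 and 57.1 FPKM in knockout (log2 difference -1.23, SE 0.12, adjusted p = 9.30e-05), with Sgce beside it at -0.61. Mest, Rtl1, Mirg and Snrpn were higher, by 0.61 to 0.63, the calls on Mest and Rtl1 being lost in 1 and 3 of the 6 leave-one-out fits.

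Of 33 Hox and retinoic acid genes only 9 were tested, with 5 lower (3 without control replicate 2) and 1 higher. Of all genes 3.32% were lower and 7.07% higher. The 24 others on the list, most of them Hox genes, reached at most 1.13 FPKM. Crabp1, which binds retinoic acid, was at 9.35, 10.6 and 13.96 FPKM in control and 1.97, 1.52 and 0.764 FPKM in knockout (log2 difference -2.36, SE 0.20, adjusted p = 3.19e-05), and the Hox cofactor Meis2 at 13.9, 15.9 and 12.6 FPKM in control and 2.70, 3.07 and 2.41 FPKM in knockout (log2 difference -2.02, SE 0.13, adjusted p = 4.24e-06). Aldh1a2, which makes retinoic acid in mesoderm, was at 1.90, 2.06 and 1.78 FPKM in control and 0.133, 0.0905 and 0.234 FPKM in knockout (log2 difference -1.34, SE 0.15, adjusted p = 0.000211). In these 3 the control libraries were well clear of the knockout libraries. Meis1 differed by -1.34 and Cyp26a1, which degrades retinoic acid, by -0.83. Dhrs3, which reduces retinal and is induced by retinoic acid, was the higher one, at 2.15, 3.67 and 1.45 FPKM in control and 9.67, 8.59 and 8.92 FPKM in knockout (log2 difference 1.61, SE 0.20, adjusted p = 0.000537).

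Few genes of general cell functions passed. Of 26 cell cycle genes, Ccne1 was higher (0.55, a call lost in 3 of the 6 leave-one-out fits), Ccnd2 (-1.09) and Cdkn1c lower, and 23, among them Mki67 at 0.01, did not pass. None of 15 replication-dependent histone genes, 21 nuclear respiratory chain genes, 12 mitochondrially encoded genes or 6 genes kept as a check of RNA quality passed with limma as deposited, and after rescaling 1 histone gene did. The list medians were 0.20, 0.16, 0.10 and 0.08 as deposited, near the 0.13 of all genes, and 0.09, 0.05, -0.01 and -0.03 after rescaling, so the last 2 changed sign. Of 10 tested noncoding RNAs on a list of 28, 4930500J02Rik and H19 were the 2 called. The 3 tested genes of the Y chromosome were higher: Ddx3y at 13.9, 18.9 and 17.4 FPKM in control and 30.9, 28.4 and 27.7 FPKM in knockout (log2 difference 0.77, SE 0.13, adjusted p = 0.00376), and Eif2s3y and Uty by 0.46 and 0.45. The last 2 calls were lost in 4 and 3 of the 6 leave-one-out fits, and without knockout replicate 1 or 2 only 1 of the 3 was higher. Of the 10 immune genes only Cd68, a lysosomal protein gene that other cells express too, was tested, at 1.83, 1.77 and 1.52 FPKM in control and 3.88, 3.22 and 2.72 FPKM in knockout (log2 difference 0.65, SE 0.14, adjusted p = 0.0155), a call lost in 2 of the 6 leave-one-out fits, and of the 12 fibroblast genes only Thy1 (0.43, not past the threshold). The summed level of the immune list was 1.84 to 2.29 FPKM in control and 2.89 to 4.52 FPKM in knockout, with Cd68 most of it, and that of the fibroblast list 4.40 to 4.93 FPKM in control and 3.38 to 4.40 FPKM in knockout.

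Among the 15 lowest and 15 highest differences with a group mean of at least 5 FPKM, several genes were on none of the lists. Capn6, an X-linked calpain-family gene active in embryonic muscle and placenta, was at 18.9, 18.1 and 21.6 FPKM in control and 1.14, 1.20 and 0.837 FPKM in knockout (log2 difference -3.32, SE 0.13, adjusted p = 1.00e-07). Nrp1, a co-receptor of VEGF and semaphorins, was at 13.3, 13.5 and 16.3 FPKM in control and 1.25, 1.88 and 1.46 FPKM in knockout (log2 difference -2.61, SE 0.13, adjusted p = 1.46e-06). The controls exceeded the knockout by about the same margin as for Kdr and Pdgfra. On the higher side, the metalloprotease gene Adamts9 was at 15.3, 21.0 and 23.1 FPKM in control and 63.2, 65.1 and 64.0 FPKM in knockout (log2 difference 1.66, SE 0.14, adjusted p = 3.87e-05). Igfbp3, which binds insulin-like growth factors, was at 40.5, 63.5 and 53.3 FPKM in control and 153, 158 and 144 FPKM in knockout (log2 difference 1.54, SE 0.16, adjusted p = 0.000139), and Foxj1, the factor of motile cilia, at 8.81, 10.9 and 12.6 FPKM in control and 33.8, 33.0 and 31.8 FPKM in knockout (log2 difference 1.54, SE 0.13, adjusted p = 3.27e-05). In these 3 each knockout library was well above each control. Ccno, which also acts in cells with motile cilia, differed by 1.65, Ppp4r4 by 1.64, Psors1c2 by 1.64, the nucleotidase Nt5e by 1.60, the cytokine gene Ltb by 1.54, the fatty acid transporter Slc27a2 by 1.48 and the uncharacterised Gm12688 by 1.62. The pseudogene Cct3-ps1, whose reads may be shared with its parent gene, was at 1.70, 1.55 and 1.29 FPKM in control and 7.45, 3.15 and 12.7 FPKM in knockout (log2 difference 1.64, SE 0.33, adjusted p = 0.00971), a call lost in 2 of the 6 leave-one-out fits.

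Of the 15 lowest entries, 7 were predicted gene models that differed between libraries in parallel: Gm10800, Gm16869, Gm10717, Gm10801, Gm10722, Gm10718 and Gm10106. Gm10800 was at 8679, 1866 and 956 FPKM in control and 251, 215 and 358 FPKM in knockout (log2 difference -3.21, SE 0.60, adjusted p = 0.00727). Their sum was 9763, 2177 and 1058 FPKM in control replicates 1, 2 and 3, and 275, 233 and 386 FPKM in knockout. The controls differed among themselves by more than some of them did from the knockout, and on other days the sum ran from 150 to 12667 FPKM. Such models can share reads with each other, so they are uncertain as separate genes, and whether the level follows the deletion or the library was not tested.

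Chromosome 1 lay lower as a whole. Its 673 tested genes had a median difference of -0.14 against 0.14 for the other genes, a shift of -0.27, and 83.5% lay below the median of the others. Of these genes 2.53% were higher and 10.8% lower, next to 7.07% and 3.32% of all genes. The shifts of the other 19 chromosomes, Y and mitochondria left aside, ran from -0.01 to 0.04. Called genes of chromosome 1 named above are Fn1, Cxcr4, Sox17, Cfc1, Lefty1, Tgfb2, Fzd7, Bmpr2 and Atf3, and their differences run well past that shift in either direction. How far the shift of the chromosome enters the values of its genes was not tested. Without the genes of chromosome 1, 851 genes were higher and 339 lower, and 19 cardiac mesoderm genes were lower, none of which is on it.

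**Figure D4:**
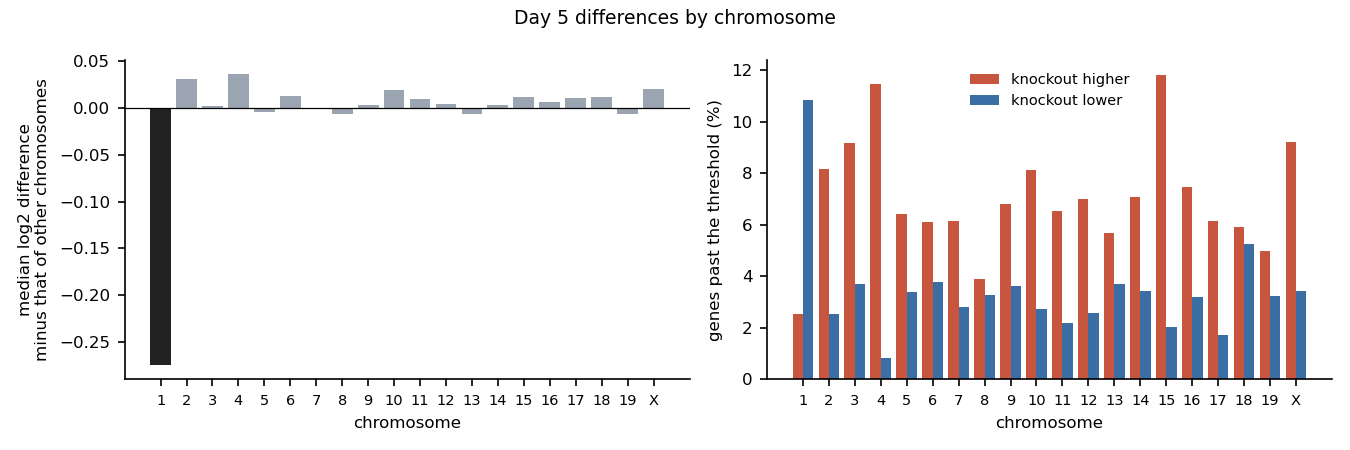
Left, the median log2 difference of each chromosome's tested genes minus that of all other chromosomes. Right, the share of its genes past the threshold, higher (red) and lower (blue). Chromosome 1 lies at -0.27 and is lower in 10.8% of its genes, while the others lie from -0.01 to 0.04.

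The neighbouring days show when these differences were present. Each day's difference was taken within its own table, since the tables may have been normalized apart, and the change of the difference was tested in 1 model over all 36 libraries. Of 12860 genes 4.5% had a difference at day 5 unlike that at day 3, and of 13245 genes 3.71% had one at day 8 unlike that at day 5. Comparisons that share the day 5 libraries are not independent of each other. Some libraries of the other days stood apart as well. At day 3 control replicate 1 summed to 294740 FPKM against 339064 to 400674 in the other 5, and its 10 most abundant genes held 30.1% of it, against 23.0% in control replicate 2 and 11.3% to 16.2% in the other 4. At day 8 that share was 30.2% and 25.2% in knockout replicates 1 and 3 and 28.6% in control replicate 3, against 12.7% to 15.6% in the other 3. Without control replicate 1 of day 3, 1016 genes changed between days 3 and 5 against 579 with it. The changes were therefore also fitted without each library of day 3 or day 8 in turn, an alternative chosen after seeing the data.

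Of the 3 days, Mesp1 was on at day 5. It was at 0.0622 ± 0.108 FPKM in control against 0.0324 ± 0.0561 FPKM in knockout at day 3 and 0.637 ± 0.197 FPKM in control against 0.944 ± 0.540 FPKM in knockout at day 8 (SD, n = 3), with means under 1 FPKM in both groups. The day 8 difference exceeded the day 5 difference by 3.12 (SE 0.26, adjusted p = 2.24e-09). Kdr was at 29.0 ± 0.770 FPKM in control against 16.2 ± 2.17 FPKM in knockout at day 8, a difference of -0.81 after -3.39 at day 5, a change of 2.59 (SE 0.40, adjusted p = 4.55e-05). Hand2 was at 36.9 ± 1.93 FPKM in control against 9.99 ± 2.70 FPKM in knockout at day 8, still lower in the knockout by -1.82 (adjusted p = 0.000543), a change of 0.84 (SE 0.24, adjusted p = 0.0375). Hand1 and Pdgfra were also lower at both days, with day 8 differences of -1.80 and -1.62. At day 3 none of these genes had a mean of 2 FPKM in either group. The changes of Mesp1 and Kdr to day 8 passed without any 1 library of day 8. Those of Hand1, Hand2 and Pdgfra passed in 2, 1 and 2 of these 6 fits, and each was lost in some fits without a day 5 library too.

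The streak gene T was barely on at day 3, at 1.59 ± 0.665 FPKM in control against 0.256 ± 0.159 FPKM in knockout, and its difference of 0.98 at day 5 was a change of 2.00 (SE 0.30, adjusted p = 4.53e-05). At day 8 it was at 3.09 ± 0.787 FPKM in control against 11.1 ± 3.33 FPKM in knockout, again higher in the knockout (1.55, adjusted p = 0.00394). Fgf8 was at 3.35 ± 0.351 FPKM in control against 1.03 ± 0.576 FPKM in knockout at day 3, and its difference changed by 1.48 (SE 0.24, adjusted p = 0.000111). Eomes, level at day 5, was at 5.89 ± 1.83 FPKM in control against 2.84 ± 0.520 FPKM in knockout at day 3 and 8.08 ± 0.565 FPKM in control against 14.8 ± 2.48 FPKM in knockout at day 8, with changes of 0.82 (SE 0.25, adjusted p = 0.0556) and 0.78 (SE 0.25, adjusted p = 0.0861), neither past the threshold. Nanog had a difference of -0.81 at day 3 that did not pass (adjusted p = 0.159), and its change to day 5 was 1.72 (SE 0.30, adjusted p = 0.000258). Pou5f1 was at 356 ± 95.0 FPKM in control against 398 ± 55.0 FPKM in knockout at day 3 and 26.0 ± 1.72 FPKM in control against 82.6 ± 23.4 FPKM in knockout at day 8, and its changes of 0.92 (SE 0.34, adjusted p = 0.147) and 0.49 (SE 0.34, adjusted p = 0.759) did not pass. After rescaling, those of Eomes passed (adjusted p = 0.00644 and 0.0116), as did the earlier change of Pou5f1 (adjusted p = 0.0362). The changes of T, Fgf8 and Nanog passed without any 1 library of day 3. Levels of different days were not tested against each other.

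Fn1 passed the threshold at day 5 and not at day 3 or 8. It was at 27.5 ± 3.49 FPKM in control against 34.4 ± 7.80 FPKM in knockout at day 3 and 213 ± 31.6 FPKM in control against 174 ± 34.6 FPKM in knockout at day 8, and its difference changed by -2.48 (SE 0.21, adjusted p = 1.25e-09) and 1.89 (SE 0.21, adjusted p = 1.92e-07), past the threshold without any 1 library of day 3 or day 8. The noncoding RNA 4930500J02Rik was lower at all 3 days, by -3.95 at day 3, and listed at 0 in the knockout libraries of day 8. Tagln and Ccng1 had differences of -0.25 and 0.05 at day 3 that did not pass, and were higher in the knockout at days 5 and 8. For Tagln the change from day 3 to day 5 was 1.70 (SE 0.29, adjusted p = 0.000182), and for Ccng1 0.58 (SE 0.20, adjusted p = 0.113), which passed after rescaling (adjusted p = 0.000295). Etv2 was at 4.57 ± 2.26 FPKM in control against 2.11 ± 0.424 FPKM in knockout at day 3, and its difference changed by 1.46 (SE 0.35, adjusted p = 0.00962). The changes of Tagln and Etv2 passed without any 1 library of day 3.

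**Figure D5:**
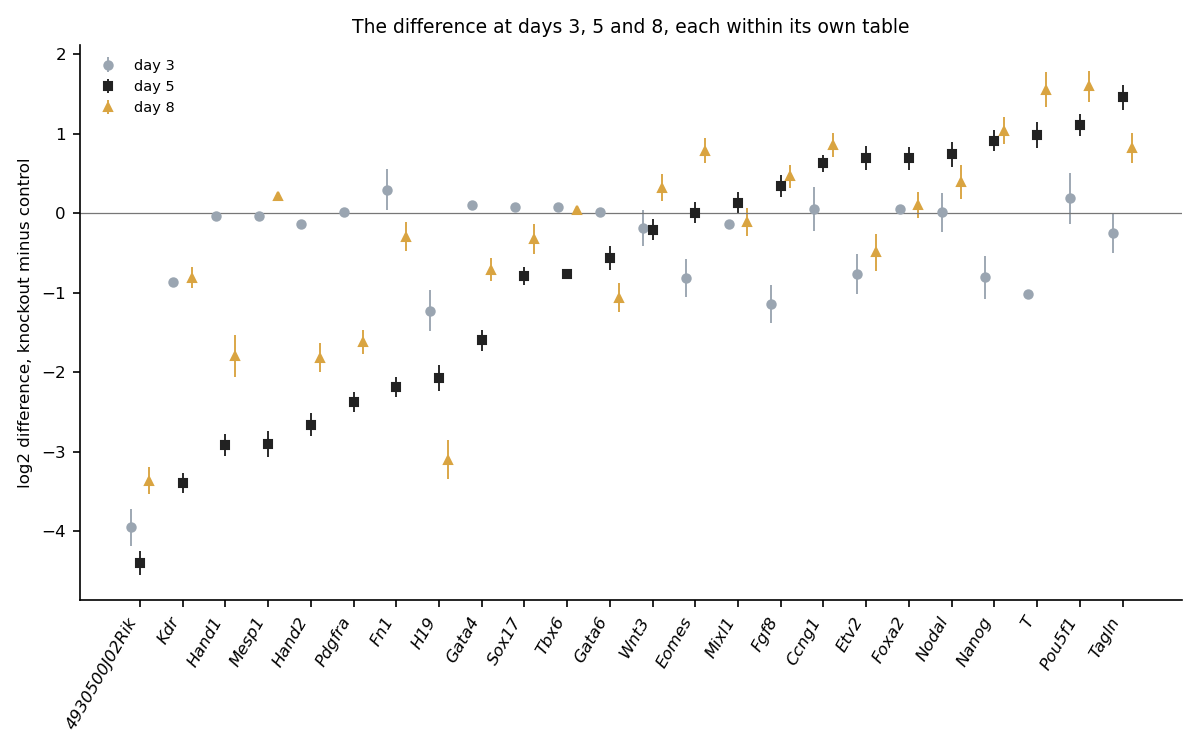
Log2 difference (knockout minus control, on FPKM + 1) of 24 marker genes at days 3, 5 and 8, each from its own table, with bars of 1 SE where the gene passed the filter of that day. Mesp1 and Fn1 stand far below 0 at day 5 and near 0 at days 3 and 8, while Pou5f1, Nanog and T stand above 0 at days 5 and 8.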

How the data were processed

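RNA sequencing of 6 mouse embryoid body libraries at day 5 was used, with those of days 3 and 8 for comparison. The authors deposited FPKM values in 6 tables, 1 per day. The submitters' processing notes name TopHat, Cufflinks and mm9 (mouse) without versions or settings; the annotation and any scaling between libraries are not given in the sources used here. Libraries were ScriptSeq Complete Gold total RNA, per the labels' protocols, which name another HiSeq model than the design text. FPKM holds no read counts, so depth is unknown and no counting interval is given.

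From the deposited FPKM, genes with a mean of 1 or more were put on log2(FPKM + 1) and tested with limma 3.58.1 in R 4.3.3 (lmFit, eBayes with a variance trend), two-sided. P-values were adjusted by Benjamini and Hochberg over all genes in the fit, and 0.05 was the threshold. The step was tested on simulated data. The change of the difference between days was a contrast over all 36 libraries. Alternatives were a pseudocount of 0.1, no filter, a filter at 5 FPKM, median-ratio rescaling, no variance trend, a fit over 36 libraries, a replicate block, no chromosome 1 and leaving out each library of day 5, and, chosen after seeing the data, each library of days 3 and 8 in the changes between days. Genes named were the 15 highest and 15 lowest differences past the threshold without overlap and with 5 FPKM or more in the higher group, called members of 37 gene lists (all of 10 main lists, up to 6 of the others) and a panel of 24 markers. Members of lists outside this rule were chosen after their values were seen. Some members counted in the lists are not reported here by name. Of 679 list genes 24 matched no entry. For 9 symbols with several entries the most abundant was used. The members and lists were chosen with earlier results of these data known. Chromosomes come from GRCm38 by Ensembl identifier, which matched 32616 of 37561 entries, and promoter windows from RefSeq (GRCm38.p6), with no coordinates in mm9.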

Additional observations from a re-analysis of the deposited data

Results flagged for a closer look

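These results were singled out because the knockout difference of a marker gene at day 5 was unlike that at day 3 or at day 8, by the test of that change. Each value below is the later difference minus the earlier one, on the log2 scale.

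From day 3 to day 5 the difference moved down for Hand1 by -2.88, Mesp1 by -2.87, Hand2 by -2.53, Kdr by -2.52, Fn1 by -2.48, Pdgfra by -2.39, Gata4 by -1.71 and Sox17 by -0.86. It moved up for T by 2.00, Nanog by 1.72, Tagln by 1.70, Fgf8 by 1.48 and Etv2 by 1.46. Each of these changes passed without any 1 library of day 3, other than that of Sox17, which passed in 5 of 6 such fits. At day 3 Mesp1, Hand1, Hand2, Pdgfra and Sox17 had means under 1 FPKM in both groups, and Kdr was at 1.69 ± 2.41 FPKM in control against 0.151 ± 0.127 FPKM in knockout (SD, n = 3).

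From day 5 to day 8 the difference moved up for Mesp1 by 3.12, Kdr by 2.59, Fn1 by 1.89, Hand1 by 1.12, 4930500J02Rik by 1.03, Gata4 by 0.89, Hand2 by 0.84 and Pdgfra by 0.75. The changes of Mesp1, Kdr, Fn1 and 4930500J02Rik passed without any 1 library of day 8, while those of Hand1, Gata4, Hand2 and Pdgfra passed in 2, 3, 1 and 2 of the 6 such fits. With a pseudocount of 0.1 the changes from day 3 of Kdr, Etv2 and Sox17 and the changes to day 8 of 4930500J02Rik, Pdgfra and Gata4 did not pass. With the 12 libraries of the compared days alone, those of Sox17 from day 3 and of Hand1 and Hand2 to day 8 did not pass. The value of 4930500J02Rik follows its lower control level at day 8, 9.33 ± 0.993 FPKM in control against 0 ± 0 FPKM in knockout, and is set in part by the pseudocount of 1, since the knockout libraries were listed at or near 0. The tables of the 3 days may have been normalized apart, which does not enter a difference within a table except through FPKM + 1.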

How the results depend on the processing

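No named gene past the threshold at day 5 changed sign under the alternatives run. The list median changed sign in 4 of 37 lists after rescaling, 3 of 35 with a filter at 5 FPKM, 1 of 37 without chromosome 1 and at most 2 of 37 when 1 library was left out. Of the 172 named genes past the threshold, 163 kept their call after median-ratio rescaling, 154 in the fit over all 36 libraries, 168 without the variance trend, 171 with a pseudocount of 0.1 and 167 with the replicate block; without the filter 100 of 172 did. Day 5 calls numbered 424 without a filter on low values (208 higher, 216 lower), where 3 core pluripotency and 2 primitive streak genes were called. With a filter at 5 FPKM 225 genes were lower, as were 8 cardiac mesoderm genes, many of the others being no longer tested. Rescaling gave 778 lower genes.

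Leaving out 1 library each gave 833 to 996 calls, 452 to 663 higher and 256 to 391 lower. The count of calls moved past 1.5 times without control replicate 1 (843) or knockout replicate 3 (833). The count of higher genes did so without these (452 and 510) and without knockout replicate 1 (523), and the count of lower genes without control replicate 3 (256). The change from day 3 to day 5 was called in 327 genes with a filter at 5 FPKM, 318 with the 12 libraries of those days alone and 1354 after rescaling, and the change from day 5 to day 8 in 244, 296 (pseudocount of 0.1) and 809 (rescaling). Leaving out 1 library of day 5 gave 435 to 494 calls for the first change, and 1 of day 3 gave 475 to 1016, the highest without control replicate 1 of that day, and 1 of day 8 gave 382 to 463 for the second. The cause of these shifts was not tested. The replicate block gave 1300 calls, 894 higher and 406 lower. Same-numbered libraries deviated together at r of 0.06, 0.21 and 0.08, and 4 of 6 libraries correlated best with their own number. These values do not settle whether the numbers pair the libraries, and the main fit did not pair them. Depth is unknown, which leaves low genes without a limit of detection.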

Other observations

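In 6 genes a single library was listed at 0 while the other 5 held 5 FPKM or more, and none of the 6 passed the threshold; they were chosen after their values were seen. Jmjd1c was listed at 0, 38.8 and 38.4 FPKM in control and 51.3, 54.0 and 52.1 FPKM in knockout. Stard7 was at 40.9, 40.8 and 40.7 FPKM in control and 39.7, 41.3 and 0 FPKM in knockout. For 1110012J17Rik the control values were 48.0, 53.02 and 42.9 FPKM and the knockout values 0, 51.4 and 65.3 FPKM. In Bahcc1, Reep3 and Snora61 the library at 0 was control replicate 1, as in Jmjd1c. Gapdh, an abundant glycolysis gene with many processed pseudogenes, was listed at only 5.22 to 7.33 FPKM in the 6 libraries, next to 872 to 1058 FPKM for Actb.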
